A study of Mus musculus with 8 samples.

Results

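The growth hormone, STAT5 and IGF1 axis was examined in mouse liver through 9 genes: the receptor gene Ghr, the signal transducers Stat5a and Stat5b, the feedback inhibitors Cish and Socs2, the secreted products Igf1 and Igfals, and the transcription factors Bcl6 and Onecut1. The genes were taken by symbol from a table of 55487 genes, and all 9 were found and passed the filter on low counts. The livers came from male C57Bl/6J mice about 10 weeks old. For the 4 libraries labelled sorbate, 17 mg of potassium sorbate, a common food preservative, had been given by oral gavage 4 hours before. For the 4 libraries labelled control, water had been given by gavage, also 4 hours before. No genetic change is named for either group, and neither the clock hour of sampling nor 1 animal per library is stated in the labels. The p-values therefore measure spread among libraries, which may be technical.

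Growth hormone from the pituitary binds its receptor on hepatocytes, which switches on the kinase JAK2. JAK2 phosphorylates STAT5, chiefly STAT5b in liver, and STAT5 enters the nucleus and turns on Igf1, Igfals, Socs2 and Cish. IGF1 leaves the liver and circulates in a complex with an IGF-binding protein and the acid-labile subunit that Igfals encodes. CIS and SOCS2, the products of Cish and Socs2, end the signal, and in male rodents the hormone is released in pulses that set male-type liver expression.

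STAT5 dimers bind the palindrome TTCNNNGAA, which reads the same on both strands. RefSeq promoter windows on GRCm38.p6, running from 250 bases before to 50 bases after each annotated start, were found for 8 of the 9 genes, all but Socs2. The palindrome lay in windows of Igfals, Cish and Bcl6, that is in 5 of the 14 windows of these 8 genes, against 8.30% of all 32851 windows. Counted by gene, 9.55% of all 27025 genes and 8.51% of the tested genes with a window held it. The stretches that carry these matches are shown so that the letters behind these counts can be read. The palindrome is in capitals, and a match is a description of letters, not a measured binding site.
Igfals, the 250 bases before the second of its 3 annotated starts (chr17:24877981-24878230, plus strand): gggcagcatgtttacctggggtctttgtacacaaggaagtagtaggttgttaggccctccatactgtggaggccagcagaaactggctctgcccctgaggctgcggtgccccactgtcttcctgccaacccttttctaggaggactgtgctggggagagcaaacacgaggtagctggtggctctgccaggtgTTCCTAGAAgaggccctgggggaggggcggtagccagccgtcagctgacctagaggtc
Cish, the first 20 bases from its annotated start (chr9:107296659-107296678, plus strand): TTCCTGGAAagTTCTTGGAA
Bcl6, an 89-base stretch before its downstream start (chr16:23981363-23981451, minus strand): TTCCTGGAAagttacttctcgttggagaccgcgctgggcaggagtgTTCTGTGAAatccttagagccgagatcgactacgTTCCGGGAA
Igfals also held 1 match in the window of its first start, and Bcl6 held 1 at its upstream start. No match was found in the windows of Ghr, Igf1, Stat5a, Stat5b or Onecut1. Those letters are absent from 300 bases only, and no conclusion on STAT5 follows from that.

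Control 2 stood apart from controls 1, 3 and 4, so the values without it are given beside the results they change. Its counts differed from theirs by 151 to 241 chi-square units per gene, while those 3 differed among themselves by 45.8 to 92.4. Control 2 was singled out from these same data, so adjusted p-values and calls without it are descriptive only.

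Igfals was higher in sorbate libraries, and it was the only 1 of the 9 genes to pass the test with all 8 libraries. Igf1, the main hormone product, had nearly equal means in both groups. Ghr was evenly high in sorbate libraries and split among the controls. Cish, Socs2, Bcl6 and Onecut1 varied several-fold between libraries of the same group, and the STAT5 genes did not pass the test. The test was edgeR's quasi-likelihood test on raw counts, with levels in CPM (counts relative to TMM-scaled library size), with Benjamini-Hochberg adjustment over 13312 genes and a threshold of 0.05. Over all tested genes it called 12.4% in either direction, 6.14% higher and 6.30% lower, so 1 of 9 is close to the background. At a threshold of 0.1 the count of axis genes was again 1, where 20.7% of all genes were called. It was 2 of 9 with limma-voom and sample weights (29.4% of all genes called) and 0 of 9 with 1 surrogate variable as a covariate (4.55% called). That variable was 0.197, 0.0844, 0.305 and 0.245 in sorbate libraries 1 to 4, and −0.532, 0.471, −0.365 and −0.404 in controls 1 to 4. Among the controls only control 2 had the sign of the sorbate libraries, so the variable partly follows the groups. A fit with it can therefore also take out part of a sorbate difference.

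**Figure D1:**
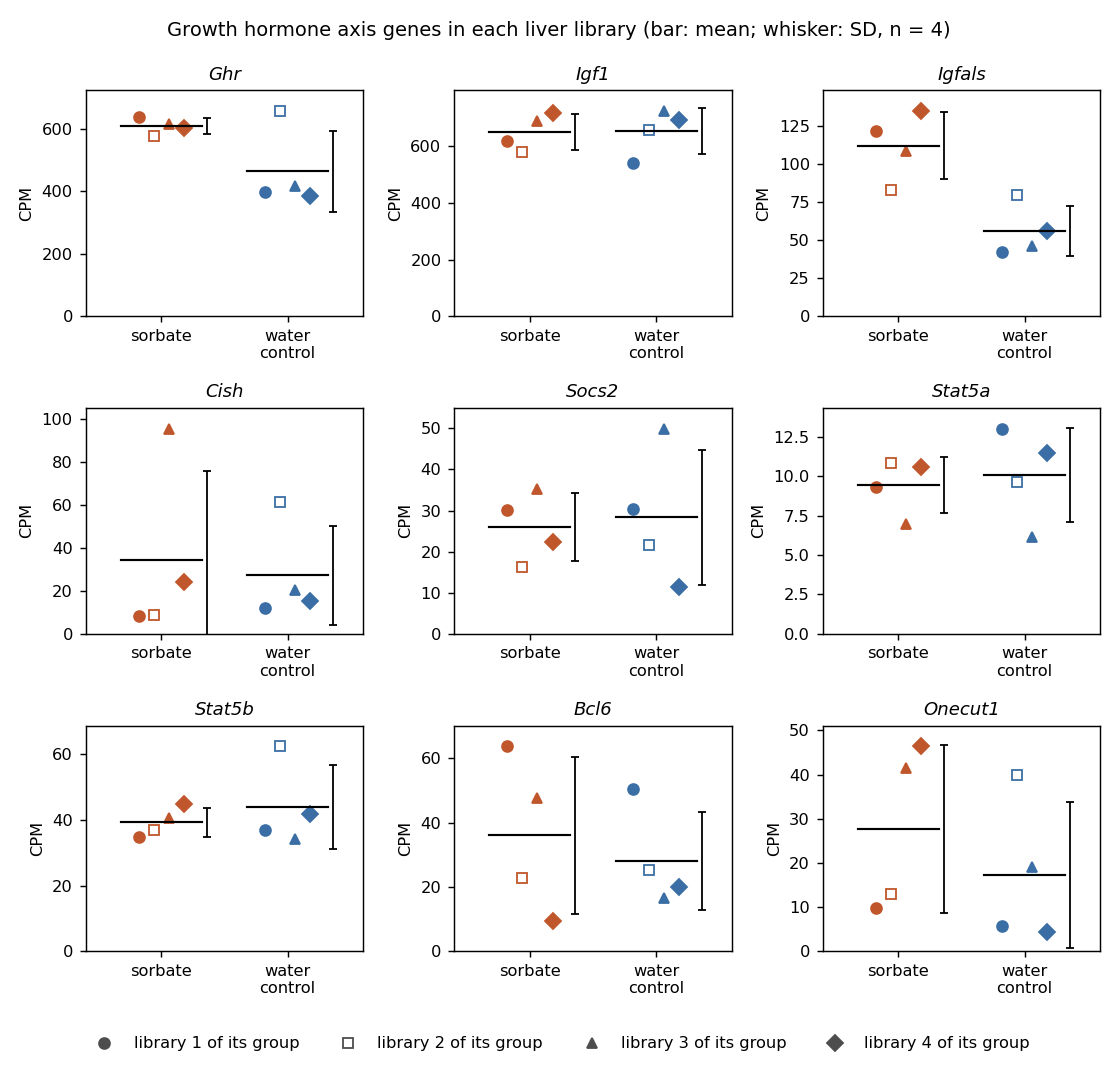
CPM (counts relative to TMM-scaled library size) of the 9 axis genes in each library, sorbate left of water control, with 1 symbol per library number, a bar at the group mean and a whisker of 1 SD (n = 4; cut at 0 for Cish). The open square among the controls is control 2, which lay at 658.3 CPM for Ghr against 385.2 to 418.6 CPM in the other controls, and Igfals is the gene whose groups do not overlap.

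Ghr encodes the growth hormone receptor (ENSMUSG00000055737, chromosome 15, 3317760 to 3583492, minus strand, GRCm38). Its level was 640.4, 578.5, 617.7 and 603.7 CPM in sorbate libraries 1 to 4, against 397.7, 658.3, 418.6 and 385.2 CPM in control libraries 1 to 4. The sorbate libraries were close together, 3 controls were lower than all of them, and control 2 was higher than all of them. The means were 610.1 ± 25.9 CPM with sorbate and 465 ± 130 CPM in controls (SD, n = 4 each), a log2 fold change of 0.39 (SE 0.18, 95% interval 0.00 to 0.78, edgeR adjusted p = 0.165). Without control 2 the log2 fold change was 0.62 (SE 0.11, edgeR adjusted p = 0.00153), and Ghr was then called higher, in a fit that called 29.3% of the 13559 genes tested. Over the 14 alternatives its log2 fold change ran from 0.11 with a surrogate variable to 0.62, and its adjusted p from 0.00153 to 0.684.

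Stat5b, the form of STAT5 that carries most of the hormone's signal in liver, had 34.8, 37.0, 40.6 and 44.7 CPM in sorbate libraries and 37.0, 62.5, 34.2 and 41.9 CPM in controls. The sorbate values lay inside the range of the controls, whose top was again control 2. Its log2 fold change was −0.16 (SE 0.18, 95% interval −0.56 to 0.24, edgeR adjusted p = 0.591), and it was 0.07 without control 2 (95% interval −0.19 to 0.33). Stat5a, its close paralog next to it on chromosome 11, had 9.34, 10.9, 6.999 and 10.6 CPM with sorbate, against 13.04, 9.66, 6.14 and 11.5 CPM in controls. Those ranges overlapped, with a log2 fold change of −0.10 (SE 0.23, 95% interval −0.60 to 0.40, edgeR adjusted p = 0.810). Stat5a turned to 0.03 when libraries were scaled by total counts alone. Levels per length, with all annotated exons of a gene merged, were also compared. The Stat5b level was then 4.80, 4.40, 7.47 and 5.44 times the Stat5a level in sorbate libraries. In controls it was 3.66, 8.32, 7.17 and 4.68 times that level. Exons of Stat5a overlap exons of Stat3 on the other strand, and the use of strand in counting is not given in the sources used here, so the Stat5a values may hold Stat3 reads.

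Igfals encodes the acid-labile subunit, which lengthens the life of IGF1 in blood (ENSMUSG00000046070, chromosome 17, 24865997 to 24882010, plus strand). It had 122.2, 83.1, 108.7 and 135.1 CPM in sorbate libraries and 42.6, 79.8, 46.3 and 55.9 CPM in controls. Every sorbate library was above every control, but the gap between sorbate 2 and control 2 was small. The means were 112 ± 22.2 CPM with sorbate and 56.2 ± 16.7 CPM in controls (SD, n = 4 each), a log2 fold change of 1.00 (SE 0.21, 95% interval 0.54 to 1.46, edgeR adjusted p = 0.0141). Groups without overlap were found in 17.7% of the tested genes, and in 9.42% with sorbate higher. The call was lost without control 3 (log2 fold change 0.92, edgeR adjusted p = 0.0530) and with 1 surrogate variable as a covariate (0.67, edgeR adjusted p = 0.0529). Without control 2 the log2 fold change was 1.23 (edgeR adjusted p = 2.69e-04).

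Igf1 encodes insulin-like growth factor 1 (ENSMUSG00000020053, chromosome 10, 87858265 to 87937042, plus strand). It had 617.9, 579.4, 689.1 and 718.6 CPM with sorbate, against 540.3, 656.2, 724.6 and 691.0 CPM in controls. The ranges overlapped almost entirely, and control 2 was within the range of the other controls. Means of 651 ± 63.9 CPM with sorbate and 653 ± 80.2 CPM in controls (SD, n = 4 each) gave a fold of 0.997, with a 95% interval of the log2 fold change from −0.30 to 0.30 (edgeR adjusted p = 0.989). The Igf1 level per length was 1.62, 2.23, 2.03 and 1.70 times that of Igfals in sorbate libraries and 4.06, 2.63, 5.002 and 3.95 times in controls. This ratio carries the Igfals values given above, and no test was made on it.

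Cish encodes CIS, an SH2 protein that STAT5 induces within minutes to hours of a hormone pulse and that then blocks the receptor. It had 8.41, 8.85, 95.6 and 24.0 CPM in sorbate libraries and 11.8, 61.6, 20.5 and 15.4 CPM in controls. A single library of each group, sorbate 3 and control 2, was far above the rest, and the groups overlapped. The highest sorbate value was 11.4 times the lowest, and the highest control value 5.22 times the lowest. The log2 fold change of 0.33 (SE 0.76, 95% interval −1.36 to 2.01, edgeR adjusted p = 0.810) therefore rested on these libraries, since it was −1.0 without sorbate 3 and 1.12 without control 2.

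Socs2, whose product removes the receptor and whose loss gives giant mice, had 30.0, 16.3, 35.2 and 22.3 CPM with sorbate, against 30.4, 21.5, 49.95 and 11.5 CPM in controls. The sorbate values lay inside the control range, and control 2 was not high here. Its log2 fold change was −0.13 (SE 0.38, 95% interval −0.96 to 0.71, edgeR adjusted p = 0.854), and it was 0.30 without control 3.

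Bcl6, a repressor that competes with STAT5 at many liver sites, had 63.8, 23.0, 47.8 and 9.61 CPM in sorbate libraries and 50.4, 25.3, 16.5 and 20.2 CPM in controls. The highest and the lowest of all 8 values were both sorbate libraries. The log2 fold change was 0.36 (SE 0.51, 95% interval −0.75 to 1.48, edgeR adjusted p = 0.668), and −0.06 without sorbate 1. Onecut1, which encodes the hepatocyte factor HNF6, known to be induced by growth hormone in liver, had 9.90, 12.9, 41.5 and 46.4 CPM with sorbate, against 5.68, 39.8, 19.1 and 4.48 CPM in controls. Sorbate libraries 3 and 4 and control 2 were high, and the others were at or below 19.1 CPM. Its log2 fold change was 0.68 (SE 0.68, 95% interval −0.83 to 2.18, edgeR adjusted p = 0.539). Without control 2 it was 1.5 (95% interval 0.20 to 2.80, edgeR adjusted p = 0.0793), and with the surrogate variable −0.18.

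**Figure D2:**
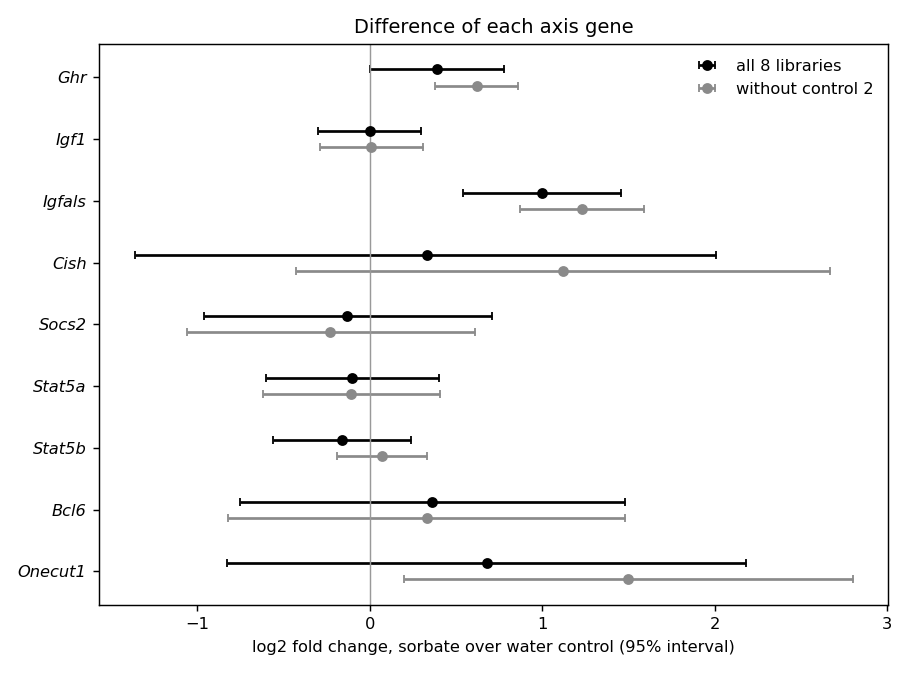
Log2 fold change, sorbate over water control, of each axis gene with its 95% interval, for all 8 libraries (black) and without control 2 (grey). The interval of Igfals lies above 0 in both, that of Ghr moves to 0.38 to 0.86 without control 2, and those of Cish, Bcl6 and Onecut1 are the widest.

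Levels were also compared per length, since longer transcripts collect more reads. The lengths merge all annotated exons of a gene, so they can exceed the transcripts present in liver. For Cish the merged length was 6419 bases, in a gene spanning 107296026 to 107302784 on chromosome 9. The order may therefore change with other lengths. Ghr and Igf1 were the most abundant of the 9, at 67.4 ± 2.86 and 65.8 ± 6.45 CPM per kb with sorbate (SD, n = 4). In controls they were at 51.4 ± 14.3 and 65.9 ± 8.10 CPM per kb. These genes overlapped each other in both groups. Igfals came next, at 35.5 ± 7.02 CPM per kb with sorbate and 17.7 ± 5.28 CPM per kb in controls, apart from its neighbours in both groups. Stat5b (7.09 CPM per kb with sorbate), Onecut1 (6.73), Bcl6 (5.38), Cish (5.33) and Socs2 (2.72) followed, each overlapping the next in both groups. Stat5a was lowest, at 1.32 ± 0.246 CPM per kb with sorbate and 1.42 ± 0.417 CPM per kb in controls, and it was apart from Socs2 in the sorbate group but not in the controls.

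The feedback inhibitors and both transcription factors varied more between libraries of a group than nearly all other genes did. The within-group SD of log2 CPM was 1.37 for Cish, 1.32 for Onecut1, 0.99 for Bcl6 and 0.71 for Socs2. These values exceeded those of 99.7%, 99.7%, 99.1% and 97.8% of the 9057 genes with a mean of at least 5 CPM, whose median SD was 0.20. Without control 2 the same genes exceeded 99.9%, 99.8%, 99.7% and 99.1%. The hormone product Igf1 varied little, with an SD of 0.17 that exceeded those of 36.2% of genes, but without control 2 its SD of 0.18 exceeded those of 56.6%. Ghr had an SD of 0.26, and 0.06 without control 2, which then exceeded that of 2.13% of genes.

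**Figure D3:**
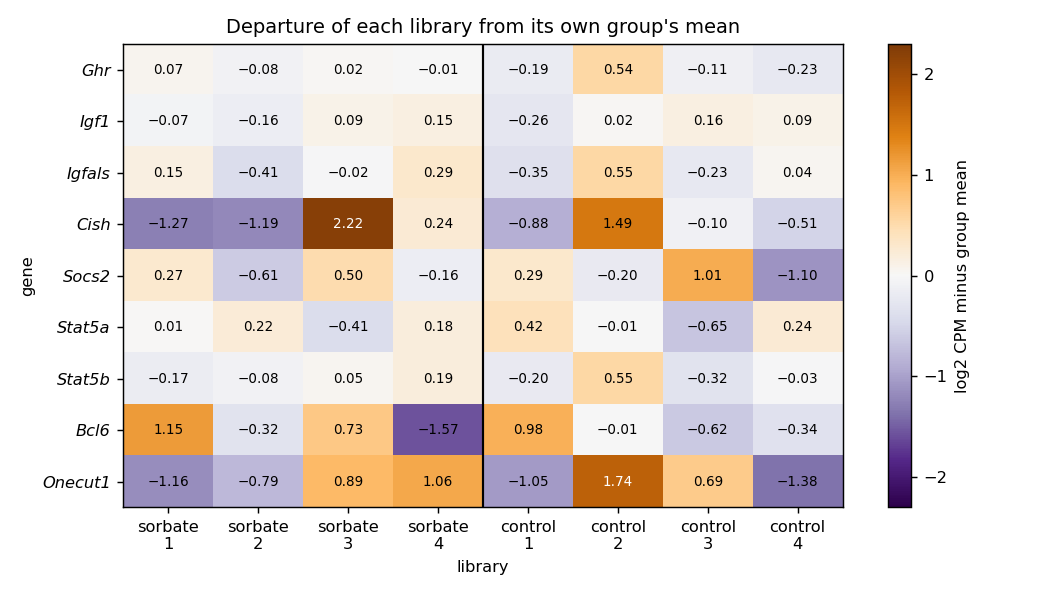
Log2 CPM of each axis gene in each library minus the mean of that library's own group (colour and printed value). Cish stands 2.22 above its group in sorbate 3 and 1.49 above in control 2, Onecut1 1.74 above in control 2 and 1.06 above in sorbate 4, while Igf1 stays within 0.26 of its group mean in all 8 libraries.

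Among 24 tested genes of kinases, adaptors, phosphatases and other SOCS and STAT genes around the receptor, 0 rose and 3 fell, with a median log2 fold change of −0.06 against −0.02 over all tested genes. The share called was 12.5%, against 12.4% of all tested genes. Without control 2, 5 rose and 7 fell of 25 tested, in a fit that called 29.3% of all genes. Ptpn1 and Ptpn2, phosphatases that act on JAK kinases and STATs, averaged 21.3 and 8.99 CPM with sorbate, against 48.2 and 16.5 CPM in controls. Their log2 fold changes were −1.18 (SE 0.34, edgeR adjusted p = 0.0456) and −0.88 (SE 0.20, edgeR adjusted p = 0.0203). Stat3, the transducer of IL-6 signals, fell by 0.80 on the log2 scale (SE 0.20, edgeR adjusted p = 0.0282). Control 2 stood at 17.4 CPM for Ptpn1, 9.94 CPM for Ptpn2 and 125.2 CPM for Stat3, below every other control, and the calls were lost in 6 (Ptpn2) or 7 (Stat3, Ptpn1) of the 8 fits that left out a library, and all 3 with the surrogate variable, where Ptpn1 was at −0.22. The Ptpn1 call was also lost with library size alone. Without control 2 the log2 fold changes were −1.45 for Ptpn1, −1.05 for Ptpn2 and −0.96 for Stat3. Jak2, the kinase bound to the receptor, had 14.4, 15.3, 14.0 and 13.9 CPM with sorbate and 13.8, 16.5, 14.4 and 10.5 CPM in controls (log2 fold change 0.06, SE 0.14, edgeR adjusted p = 0.812).

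In the IGF system, 9 of 14 genes were tested, of which 2 rose and 1 fell, against 4 and 2 without control 2. The share called was 33.3%, against 12.4% of all tested genes, and the fit without control 2 called 29.3% of all genes. The IGF-binding protein gene Igfbp2 had 308.5, 221.1, 255.5 and 255.9 CPM with sorbate, against 130.1, 170.7, 119.2 and 95.8 CPM in controls. No values overlapped, and its log2 fold change of 1.01 (SE 0.18, edgeR adjusted p = 0.00646) kept its call in all 14 alternatives. Igfbp5 rose by 1.01 on the log2 scale (SE 0.23, edgeR adjusted p = 0.0206). Igfbp1, which insulin represses and fasting raises, had 60.2, 113.6, 41.2 and 123.5 CPM with sorbate and 275.8, 136.1, 372.0 and 203.2 CPM in controls, and it fell by 1.55 (SE 0.38, edgeR adjusted p = 0.0251). The call of Igfbp5 was lost in 3 and that of Igfbp1 in 4 of the 8 fits that left out a library, and both with the surrogate variable, where Igfbp1 was at −1.0. Igfbp3, whose product forms the circulating complex with IGF1 and the acid-labile subunit, did not pass (log2 fold change 0.27, SE 0.18, edgeR adjusted p = 0.340). Igf2 had 0 counts in all 8 libraries, which allows up to 0.116 to 0.190 CPM by counting error alone.

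Of 11 other hormone, cytokine and growth factor receptor genes, 1 rose and 1 fell, against 2 and 3 without control 2. That was 18.2% called, against 12.4% of all tested genes, while the fit without control 2 called 29.3% of all genes. The FGF21 co-receptor gene Klb rose by 0.77 (SE 0.19, edgeR adjusted p = 0.0290), a call lost in 7 of the 8 fits that left out a library and with the surrogate variable (0.47). The oncostatin M receptor gene Osmr fell by 2.61 (SE 0.55, edgeR adjusted p = 0.0144), a call lost without sorbate 4 and with the surrogate variable (−0.75). It was at −2.96 without control 2, which stood at 2.40 CPM, against 18.1 to 28.8 CPM in the other controls. Of 18 transcription factors tied to the hormone's action in liver, 2 rose and 1 fell, against 5 and 2 without control 2. Here 16.7% were called with all 8 libraries, beside the same all-gene shares. The estrogen receptor gene Esr1 averaged 10.1 CPM with sorbate and 26.3 CPM in controls and fell by 1.39 (SE 0.23, edgeR adjusted p = 0.00500), with no overlap. Cebpa (log2 fold change 0.66) and Trim24 (0.41) rose, and each call was lost in 7 of the 8 fits that left out a library and with the surrogate variable (0.37 for Cebpa and 0.38 for Trim24). The Trim24 call was also lost with no filter.

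Genes that are higher in male than in female mouse liver serve as a readout of pulsatile hormone. Control 2 stood apart in them, though not in them alone. Of the 26 genes listed, all tested, 2 rose and 1 fell with sorbate, a share of 11.5% called, with a median log2 fold change of 0.25. With the surrogate variable 0 rose and 3 fell, with a median of −0.20, and without control 1, 0 rose and 1 fell, with a median of 0.00. Cyp2d9 averaged 1525 CPM with sorbate and 863 CPM in controls (log2 fold change 0.82, SE 0.20, edgeR adjusted p = 0.0246). Cyp4a12b rose by 1.04 (SE 0.29, edgeR adjusted p = 0.0422), though it may share reads with Cyp4a12a. Elovl3, a fatty acid elongase, fell to 125 CPM with sorbate, against 373 CPM in controls (log2 fold change −1.58, SE 0.30, edgeR adjusted p = 0.0100). The calls of Cyp2d9 and Cyp4a12b were lost in 7 and 6 of the 8 fits that left out a library, and both with the surrogate variable (0.55 for Cyp2d9 and 0.82 for Cyp4a12b). That of Elovl3 was lost in none of the 14 alternatives.

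Control 2 was the highest control in 24 of these 26 genes and the highest of all 8 libraries in 14, against 34.1% and 13.5% of all tested genes. Of the 24 genes listed as higher in female liver, many too low to be tested, it was the highest of all 8 in 13. Being the highest library was therefore not particular to the male-biased genes. The median difference from the mean of controls 1, 3 and 4 was 0.88 on the log2 scale in control 2, and it was 0.72, 0.34, 0.64 and 0.43 in sorbate libraries 1 to 4. Without control 2, 11 of the 26 genes were called higher and 2 lower, where 15.1% and 14.1% of all genes were. Controls 1, 3 and 4 were at −0.26, 0.18 and 0.21 by this measure. Controls 3 and 4 were each above 0 in 19 genes, inside the sorbate range of 16 to 23. The 0 is the mean of controls 1, 3 and 4, so the low control 1 places controls 3 and 4 mostly above it. Their counts are therefore not a like comparison with those of the sorbate libraries. The Mup genes in the list belong to a family that holds near-identical copies, so their values may be uncertain one by one.

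**Figure D4:**
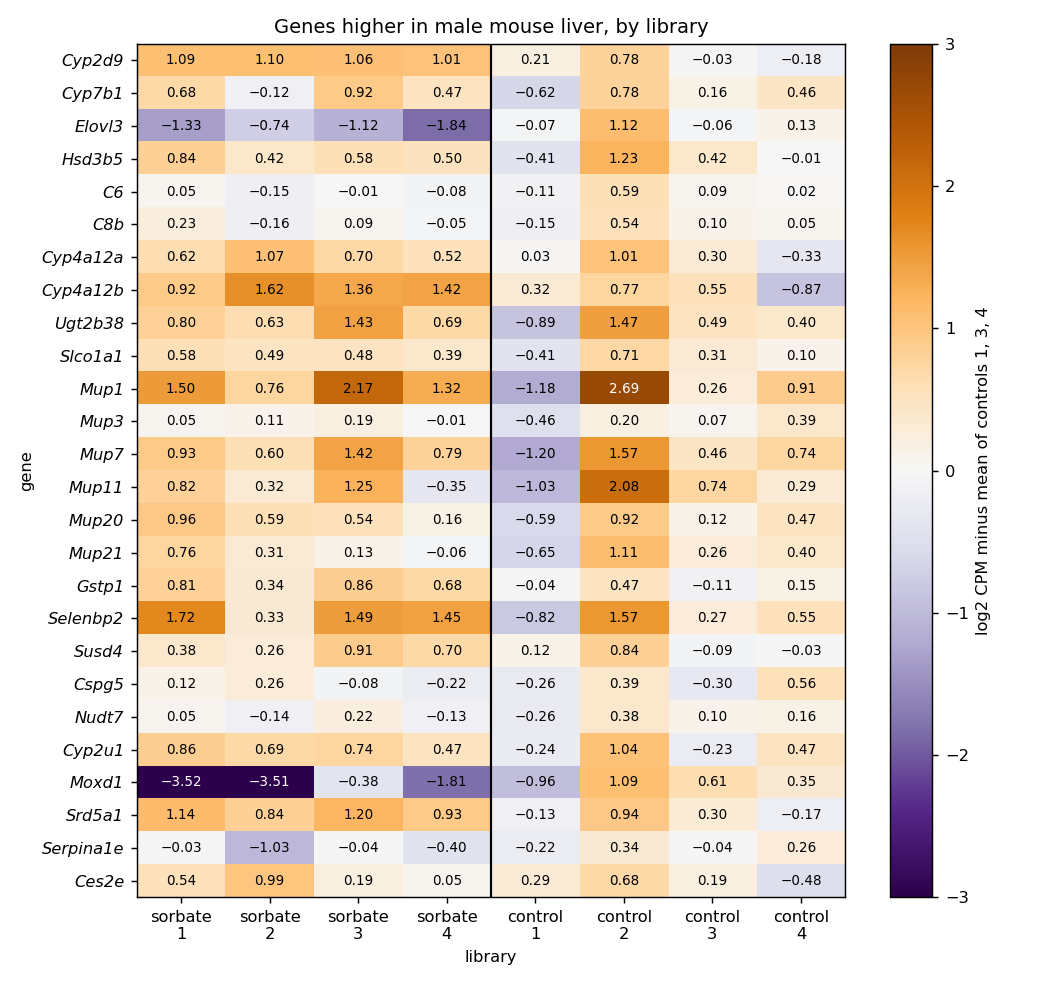
Log2 CPM of 26 genes known to be higher in male mouse liver, in each library, minus the mean of controls 1, 3 and 4 (colour and printed value). Control 2 is above 0 in all 26 genes and the sorbate libraries in 16 to 23. Controls 3 and 4 are above 0 in 19 each and control 1 in 5. Elovl3, Moxd1 and Serpina1e are below 0 in all 4 sorbate libraries.

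Of the 13 tested genes of 24 listed as higher in female liver, 2 rose and 1 fell (23.1% called, against 12.4% of all genes). Their median log2 fold change was −0.07. That median changed sign between alternatives: it was 0.34 without control 2, 0.35 with the surrogate variable and 0.44 with limma-voom. With no filter all 24 listed genes were tested, and the median over them was −0.50. Without control 2, 3 rose and 1 fell, in a fit that called 29.3% of all genes. Fmo2, a flavin monooxygenase, averaged 14.9 CPM with sorbate and 7.33 CPM in controls (log2 fold change 1.02, SE 0.18, edgeR adjusted p = 0.00749). Acot4, an acyl-CoA thioesterase, rose by 1.94 (SE 0.17, edgeR adjusted p = 3.12e-04), and Sult1e1, the estrogen sulfotransferase, fell by 1.38 (SE 0.37, edgeR adjusted p = 0.0347), a call lost in 7 of the 8 fits that left out a library and with no filter. Sult1e1 was low, with 13, 10, 10 and 4 counts in sorbate libraries and 17, 30, 16 and 22 counts in controls. The other 11 were too low to be tested.

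The profile nearest to Igfals over the 8 libraries, by root mean square difference of centred log2 CPM among 11008 genes, was that of Tent4a, a non-canonical poly(A) polymerase gene (0.107 on the log2 scale). Zfp629, a zinc finger gene, was next (0.137). Both had a log2 fold change of 0.95, with edgeR adjusted p = 0.00983 for Tent4a and 0.0104 for Zfp629. These genes were chosen for likeness to Igfals over the same libraries, so similar fold changes and calls follow from the choice.

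Total counts ran from 15773932 to 25844731 per sorbate library and from 17725351 to 22183016 per control library. Of 11 acute-phase genes 10 fell with sorbate and 0 rose, 90.9% called against 12.4% of all tested genes. Their median log2 fold change was −1.93, and 8 to 11 were called over the alternatives (11 without control 2). The log2 fold changes were −5.82 for Saa1, −8.12 for Saa2, −1.82 for Fgg, −5.33 for Orm2, −7.02 for Lcn2 and −4.47 for Apcs. Each of these calls held in all 14 alternatives. Control 2 also stood apart in the acute-phase genes. Their summed level was 12790 to 14570 CPM with sorbate, 21790 CPM in control 2 and 73750 to 111200 CPM in the other controls. The 8 hepatocyte markers summed to 81440 to 105200 CPM with sorbate and 71520 to 89870 CPM in controls, with 0 called. Of 9 Kupffer cell and macrophage markers 4 fell and 0 rose (159 to 310 CPM with sorbate, 222 to 526 CPM in controls). Of 7 endothelial markers 1 fell (122 to 149 and 117 to 241 CPM), and of 5 erythroid markers 4 fell (251 to 373 and 331 to 1373 CPM), sorbate before controls in each. The other erythroid marker, Alas2, is part of those sums and went the other way without a call. It averaged 155.0 CPM with sorbate and 120.1 CPM in controls (log2 fold change 0.37, SE 0.13, edgeR adjusted p = 0.0795). Of 4 tested bile duct markers 2 fell, Spp1 and Sox9. All 6 listed summed to 27.6 to 42.4 CPM with sorbate and 52.0 to 248 CPM in controls, mostly Spp1 (means 30.7 and 137.6 CPM). Krt19 went the other way without a call (log2 fold change 1.03, SE 0.40, edgeR adjusted p = 0.113), and Epcam was at 0.06. Both tested neutrophil markers fell. All 6 neutrophil markers listed, tested or not, summed to 1.095 to 2.71 CPM with sorbate and 2.12 to 25.1 CPM in controls. Without control 2, 8 of the 9 Kupffer cell and macrophage markers fell (median log2 fold change −1.09) and 6 of the 7 endothelial markers fell (−0.54). In the same fit 4 of 4 tested neutrophil markers fell, 2 of 5 tested bile duct markers fell, 1 erythroid marker rose and 4 fell, and 1 hepatocyte marker rose. Over all genes, 6.30% were called lower with all 8 libraries and 14.1% without control 2, where 15.1% were called higher. The 8 stellate markers had 0 calls either way, and the lymphocyte markers summed to at most 2.104 CPM. No marker was at 0 in all 8 libraries, fewer cells of a type and less RNA per cell cannot be told apart in bulk tissue, and the part of these differences in the results above was not tested.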

How the data were processed

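Liver RNA was sequenced as poly(A)-selected TruSeq libraries, single reads on a HiSeq 2500, per the labels' protocols. The deposited table holds unnormalized whole-number counts per Ensembl gene. Per the submitters' processing notes, FastQC, HISAT2 2.1.0, Subread and edgeR were used with GRCm38. How reads were counted, with which annotation release and strand setting, is not given in the sources used here. Columns were matched to samples by library number, and 4 columns that matched no sample were not used. Replicate numbers follow accession order and pair nothing. Libraries of a group differed beyond sampling noise, with a chi-square of 25.1 to 241 per gene.

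Counts were filtered with filterByExpr (minimum count 10), scaled by TMM and tested with edgeR 4.0.16 in R 4.3.3, sorbate against control, over 13312 genes. SEs come from the quasi-likelihood F statistic, and 95% intervals use its degrees of freedom. Log2 CPM used a prior count of 2. The alternatives were RLE or library-size scaling, no filter, DESeq2 1.42.0, limma-voom 3.58.1 with sample weights, 1 surrogate variable (sva 3.50.0), a threshold of 0.1, and each library left out. The scripts were tested on simulated counts. Coordinates and exon lengths, with all annotated exons of a gene merged, are from GENCODE M21 on GRCm38 (55227 of 55487 gene IDs found). Promoters are from RefSeq, GRCm38.p6.

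The members and gene lists were chosen with earlier results of these data known, from general knowledge of the pathway. All 9 members are named, and from each list up to 6 genes with the lowest p among those called, or if none passed up to 2 as values, plus the 2 profiles nearest to each called member among genes with a mean of at least 1 CPM. A selection is printed. Jak2, Igfbp3, Igf2 and the genes named in the closing observations were chosen after their values were seen.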

Additional observations from a re-analysis of the deposited data

Results flagged for a closer look

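In 34 axis and list genes, 68 groups of 4 libraries in all, the highest and lowest library were checked for a gap to the next beyond Dixon's critical value, which chance exceeds in about 1 of 20 groups. Ghr in control 2, at 658.3 CPM against 385.2 to 418.6 CPM in the other controls, and Elovl3 in control 2, at 627.7 CPM against 273.4 to 315.8 CPM, stood apart in this way. In sorbate libraries, the lone values were 10.35 CPM of Ptpn2 in sorbate 1, 27.75 CPM of Klb in sorbate 4 and 111.1 CPM of the acute-phase gene Saa1 in sorbate 3. Sult1e1 in sorbate 4 also stood alone, at 0.2434 CPM, which is 4 counts.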

How the results depend on the processing

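With all 8 libraries 1 axis gene was called. The count was 2 with limma-voom and sample weights and 0 with the surrogate variable, and 0 to 2 over the fits that left out a library (0 without control 3, 2 without control 2), and it was 1 in the other alternatives. Over all genes 1656 were called, against 3912 with limma-voom and sample weights (29.4%), 606 with the surrogate variable (4.55%), 2751 at a threshold of 0.1 (20.7%) and 689 to 3968 over the leave-outs. Library size alone put the all-gene median at 0.11 on the log2 scale, against −0.02, and the share of calls that were higher to 70.3%, against 49.4%. Signs turned only for axis genes that were not called. Igf1 was at 0.12 with library size alone and 0.00 with no filter, Cish at −0.71, Socs2 at 0.01 and Onecut1 at −0.18 with the surrogate variable. Stat5a was at 0.03 with library size alone, 0.09 with limma-voom and 0.02 with the surrogate variable, and Stat5b at 0.03 with limma-voom. Over the leave-outs Igf1 ran from −0.08 to 0.05, Cish from −1.0 to 1.12, Socs2 from −0.39 to 0.30, Stat5a from −0.27 to 0.05, Stat5b from −0.26 to 0.07 and Bcl6 from −0.06 to 0.81. Counts of calls over all alternatives, beside the main count, ran from 0 to 12 (3) for the signalling genes, 0 to 5 (2) for the receptors, 1 to 6 (3) for the IGF system, 1 to 7 (3) for the transcription factors, 1 to 13 (3) for the male-biased genes and 2 to 4 (3) for the female-biased genes, each reaching its highest count without control 2 (for the female-biased genes, 4 was also reached in other alternatives). The palindrome with a 4-base spacer lay in 8.01% of genes with a promoter window and in 0 of the 8 axis genes. The causes were not tested. No paired analysis was possible because the labels give no replicate numbers that pair the libraries. At 4 libraries a group, the wide intervals of Cish, Bcl6 and Onecut1 cover changes of over 2-fold either way or upward.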

Other observations

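The homeobox gene Hhex and the pioneer factor gene Foxa1, noticed after their values were seen, were high in the same libraries as Cish. Hhex had 35.4, 29.6, 207.8 and 60.4 CPM in sorbate libraries 1 to 4 and 18.2, 135.5, 28.3 and 66.1 CPM in controls 1 to 4. Foxa1 had 10.8, 8.27, 31.3 and 15.8 CPM with sorbate, against 6.62, 22.2, 5.95 and 9.15 CPM in controls. In both genes, as in Cish, sorbate 3 was the highest of its group and control 2 the highest of its own, and neither gene passed the test between the groups (edgeR adjusted p = 0.721 for Hhex and 0.433 for Foxa1).

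Of the 24 female-biased genes, control 2 was the highest of all 8 libraries in 13, against 13.6% of all genes with a count. Their levels were low. Sult2a1 had 2.01 CPM in control 2, against 0 to 0.178 CPM with sorbate and 0.0967 to 0.149 CPM in the other controls.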
